A study of Mus musculus with 4 samples.

Results

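The collagen gene family was taken as every gene whose single annotated symbol has the form Col, digits, a, digits, which gave 42 of the 18193 genes named on the array. Of these, 30 had a detected probe set, meaning Present calls on 2 or more of the 4 arrays, among 13148 such genes in all. Where a gene had several, the one with the highest mean log2 signal was read. They fell into 7 of 11 fibrillar genes, 5 of 6 basement membrane genes (type IV) and 18 of 25 other genes. Total RNA of tumour-bearing eyes was measured on 4 Affymetrix arrays, 2 from intact and 2 from splenectomized mice of the C57BL/6 strain, male or female and over 7 weeks old. The intact mice, like the others, carried a tumour: 10000 E.G7-OVA cells with a luciferase gene were placed in the anterior chamber, after spleen removal where it was done, and eyes were taken on day 15. The intact mice had no surgery, so removal of the spleen and the operation itself cannot be told apart. The injected line derives from a mouse T lymphoma and makes ovalbumin. The labels number the arrays but give neither animals nor their sex, so p-values measure the spread between these arrays.

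Collagens are matrix proteins built from chains that wind around each other into a helix. The fibrillar types I, III and V form the fibres of cornea, sclera and other connective tissue and are made mainly by fibroblasts and keratocytes. Type IV forms the network of basement membranes under epithelia and around vessels, with distinct chains in the lens capsule, the cornea and the retina. Type VI makes beaded filaments beside the fibres, type VIII is a major part of the membrane under the corneal endothelium, and the fibril-associated collagens, known as FACIT, decorate the fibre surface.

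Promoter windows from RefSeq on GRCm38.p6, running from 250 bases before to 50 bases after an annotated start, are shown for a chain each of types I and III and for the shared start of a basement membrane pair, since members of these groups had higher signals in splenectomized mice. In the first 2 sequences capitals mark, on either strand, matches to the CCAAT box, to the TATAAA box and to GGGCGG. In the third, which is the plus strand at Col4a2, capitals mark the 78 bases that also lie in the window of Col4a1, whose start is on the minus strand 21 bases away. The first window lies at chr6:4505368-4505667, the second at chr1:45311288-45311587 and the third at chr8:11312555-11312854, all on the plus strand.
Col1a2: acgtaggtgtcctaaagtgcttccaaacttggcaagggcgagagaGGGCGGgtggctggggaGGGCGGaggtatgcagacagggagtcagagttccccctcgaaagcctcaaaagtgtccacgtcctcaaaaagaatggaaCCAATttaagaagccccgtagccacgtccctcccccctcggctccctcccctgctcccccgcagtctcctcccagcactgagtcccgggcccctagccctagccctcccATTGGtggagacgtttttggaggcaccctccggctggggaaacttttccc
Col3a1: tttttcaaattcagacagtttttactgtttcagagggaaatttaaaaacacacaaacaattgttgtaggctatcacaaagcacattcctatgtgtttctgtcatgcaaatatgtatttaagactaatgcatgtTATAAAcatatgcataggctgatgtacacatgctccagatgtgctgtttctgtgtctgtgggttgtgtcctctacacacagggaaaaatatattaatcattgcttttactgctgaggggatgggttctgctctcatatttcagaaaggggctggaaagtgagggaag
Col4a2: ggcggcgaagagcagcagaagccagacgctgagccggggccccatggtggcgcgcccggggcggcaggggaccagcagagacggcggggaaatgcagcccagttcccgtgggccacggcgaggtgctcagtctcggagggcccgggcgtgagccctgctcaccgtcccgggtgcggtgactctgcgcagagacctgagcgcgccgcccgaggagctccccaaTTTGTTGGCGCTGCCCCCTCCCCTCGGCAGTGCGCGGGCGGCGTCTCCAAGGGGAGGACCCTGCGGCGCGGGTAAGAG
The RefSeq table held 36 windows for 33 of the 42 collagen genes. GGGCGG, the core of a GC box, was found in 61.1% of the collagen windows and in 35.7% of all 32851 windows. CCAAT was found in 36.1% and 37.4%, and TATAAA in 13.9% and 13.6%. These matches are a description of the sequences and say nothing of binding.

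In splenectomized mice, 28 of the 30 detected collagen genes had a higher mean log2 signal than in intact mice (93.3%, against 55.1% of all genes tested). The groups did not overlap for 21 of them with splenectomized higher (70.0%, against 21.7% of all genes) and for 1 with splenectomized lower (19.7% of all genes). The median log2 fold change of the family was 0.71, with quartiles of 0.50 and 0.85, while that of all genes was 0.05, with quartiles of -0.17 and 0.36. No collagen gene passed an adjusted p of 0.05 in limma, nor did any of the 13148 genes (0% called, smallest adjusted p 0.158). At an unadjusted p under 0.05 in limma, 14 of the 30 collagen genes differed (46.7%, against 8.97% of all genes), 13 of them higher (6.66% of all genes) and 1 lower (2.31%). The median was 0.46 without intact replicate 1, where 22 of 30 were higher (against 44.4% of all genes), and 0.83 without intact replicate 2. The count of 14 was 23 without intact replicate 2 (35.2% of all genes), 5 without splenectomized replicate 1 (2.08%) and 5 without splenectomized replicate 2 (2.99%). It was 9 after median centring (6.21%) and 8 without the intensity trend (8.26%). A difference in RNA per cell and a difference in the number of cells of a type cannot be told apart in whole-eye RNA.

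**Figure D1:**
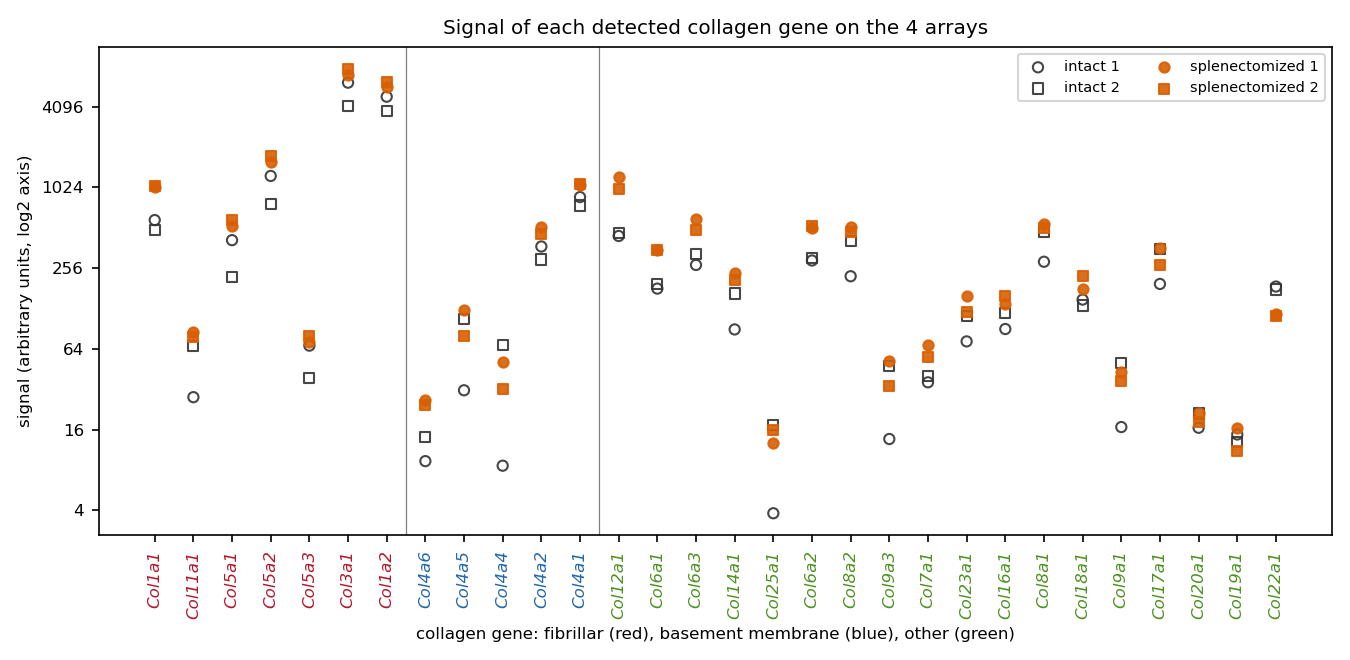
Deposited signal of the 30 detected collagen genes (arbitrary units, log2 axis) on each array, with open symbols for intact and filled symbols for splenectomized mice. Genes are grouped by class and ordered by fold change, and signals of different genes rest on different probe sets and are not comparable in level. The groups do not overlap for the 7 fibrillar genes (against 21.7% of all genes with splenectomized higher).

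All 7 fibrillar collagen genes had higher signals in splenectomized mice (against 55.1% of all genes), with a median log2 fold change of 0.78. The groups did not overlap for any of the 7 (against 21.7% of all genes with splenectomized higher). Col1a1, which encodes a chain of type I collagen, had signals of 583.9 and 492.4 in intact and of 1038 and 1047 in splenectomized mice, so both splenectomized arrays were well above both intact ones. It was 1.94-fold higher (log2 fold change 0.96 ± 0.14 SE, n = 2 per group, adjusted p = 0.190 in limma). Col1a2, the partner chain of type I, had signals of 4860 and 3801 in intact and 5763 and 6252 in splenectomized mice. Its fold was 1.4 on this probe set (log2 fold change 0.48 ± 0.18 SE). The other detected probe sets of Col1a2, one of them dim at 6.0 to 14.9, gave log2 fold changes of 1.02 and 0.98, nearer to the value of Col1a1. Col3a1, the single chain of type III collagen, had signals of 6183 and 4154 in intact and 7102 and 7791 in splenectomized mice, 1.47-fold higher. On each of these 3 genes, the second intact array was the lowest of all.

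Type V collagen, which joins type I in the corneal fibre and limits its diameter, showed the same order of arrays. Col5a1 had signals of 413.6 and 220.3 in intact and 531.1 and 583.4 in splenectomized mice, a ratio of 1.84 (limma adjusted p = 0.527). Col5a2 was at 1246 and 767.6 in intact and at 1594 and 1767 in splenectomized mice, 1.72-fold higher. Col5a3 was at 67.6 and 39.0 in intact and at 72.2 and 79.1 in splenectomized mice. Here the first intact array and the first splenectomized array were close together, and the fold was 1.47. Col11a1, a minor fibrillar chain best known from cartilage and the vitreous, went the other way within the intact pair. Its signals were 27.9 and 67.6 in intact and 85.9 and 78.3 in splenectomized mice, so here the first intact array was lowest. The fibrillar median was 0.95 without intact replicate 1 and 0.43 without intact replicate 2, and it was 0.85 and 0.70 without splenectomized replicate 1 or 2. Col3a1 and Col5a2, neighbouring genes on chromosome 1, had log2 fold changes of 0.55 and 0.78.

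The fibrillar genes that were not tested are Col2a1, Col11a2, Col24a1 and Col27a1. Col2a1 encodes the type II collagen of cartilage and vitreous. None of the 4 was called Present on 2 arrays.

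**Figure D2:**
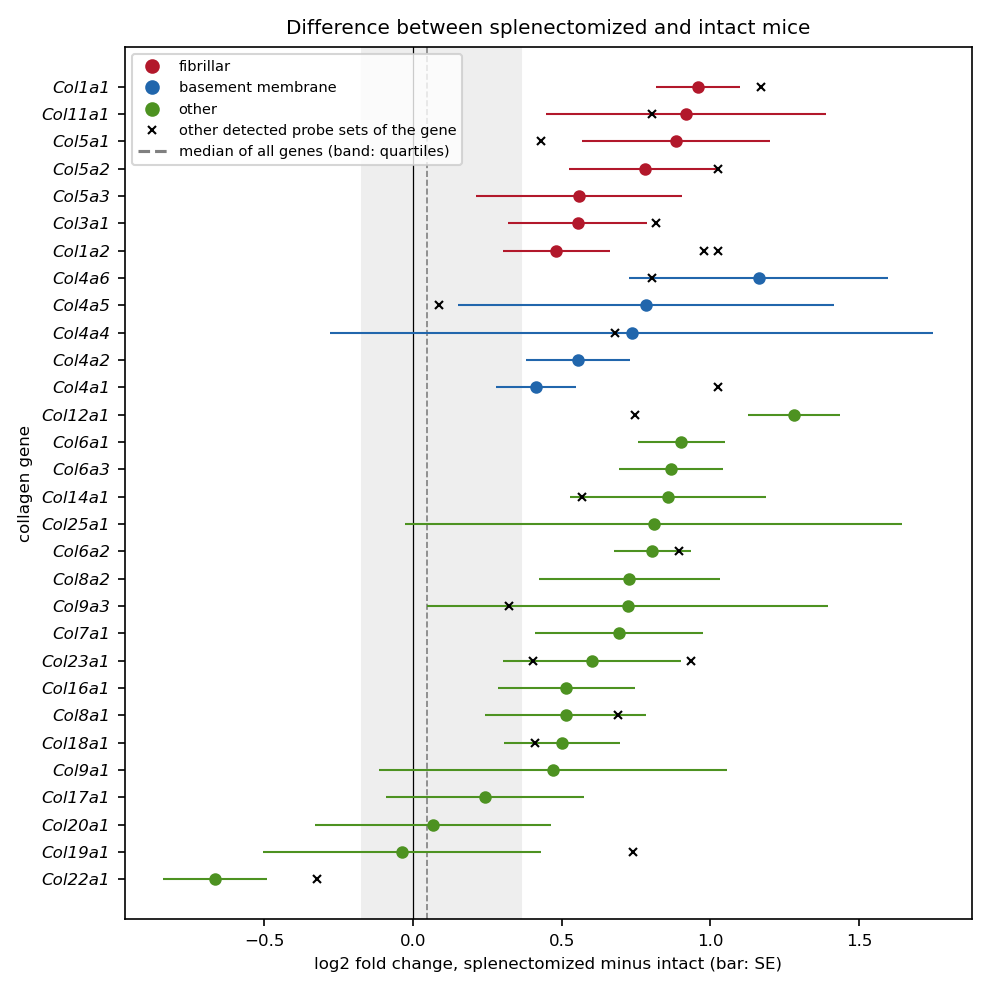
Log2 fold change of each detected collagen gene (splenectomized minus intact, 2 arrays each) with its SE from limma as a bar; crosses are the gene's other detected probe sets, the dashed line is the median of all genes (0.05) and the band its quartiles. The points of 28 genes lie right of 0, and those of Col22a1 and Col19a1 lie left of it.

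The basement membrane genes split into a pair with narrow spread and a set with wide spread. Col4a1, a chain of the type IV network found in nearly all basement membranes, had signals of 866.3 and 751.1 in intact and 1069 and 1079 in splenectomized mice, 1.33-fold higher (log2 fold change 0.41 ± 0.13 SE, adjusted p = 0.503 in limma). A second Col4a1 probe set had signals of 110.5 and 104.4 in intact and 219.3 and 218.2 in splenectomized mice, a log2 fold change of 1.03. Both probe sets thus separated the groups, at different sizes. Col4a2, its partner chain, read from the opposite strand of the shared start printed above, had signals of 371.0 and 296.2 in intact and 519.6 and 456.3 in splenectomized mice, 1.47-fold higher. In both partner genes the second intact array was the lowest, as for types I, III and V.

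The chains Col4a4, Col4a5 and Col4a6 belong to the more restricted networks of specialised basement membranes. Col4a4 had signals of 8.6 and 68.6 in intact and 51.1 and 32 in splenectomized mice, so the groups overlapped and the first intact array, called Absent, stood far below the rest. Col4a5 was at 31.4 and 107.3 in intact and at 124.4 and 80.2 in splenectomized mice, again with overlap. Their log2 fold changes of 0.74 and 0.78 turned to -0.76 and -0.10 without intact replicate 1. Col4a6 did separate the groups, at 9.3 and 14.1 in intact and 26.8 and 24.5 in splenectomized mice. It was called Present on 1 array of each group, so its 2.24-fold difference is between signals near the detection limit (adjusted p = 0.542 in limma). The annotated starts of Col4a5 and Col4a6 also lie head to head on chromosome X, 1343 bases apart. The class median of 0.74 was 0.52 without intact replicate 1, 1.46 without intact replicate 2, 0.46 without splenectomized replicate 1 and 1.07 without splenectomized replicate 2. Col4a3, the neighbour of Col4a4 on chromosome 1, was not detected.

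Among the other collagens, the type VI chains had close values within each group. Col6a1 had signals of 180.0 and 194.3 in intact and 350.8 and 348.5 in splenectomized mice, a ratio of 1.87 (log2 fold change 0.90 ± 0.15 SE, limma adjusted p = 0.20). Col6a2, its neighbour on chromosome 10, was at 291.6 and 302.4 in intact and at 507.1 and 530.9 in splenectomized mice, 1.75-fold higher. Col6a3, the large chain of the same molecule, was at 270.2 and 324.7 in intact and at 594.2 and 491.3 in splenectomized mice, 1.82-fold higher. The 3 chains that assemble together thus had log2 fold changes between 0.81 and 0.90. All 3 had an unadjusted p under 0.05 in limma (against 8.97% of all genes), and none an adjusted p under it (0% of all genes). The type VI genes Col6a4 and Col6a5 were not detected.

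The FACIT collagens had the widest range of differences. Col12a1, which lies on the surface of type I fibres, had signals of 444.3 and 464.8 in intact and 1231 and 990.3 in splenectomized mice. This was the largest difference of the family, 2.43-fold (log2 fold change 1.28 ± 0.16 SE), with an adjusted p of 0.158 in limma, the smallest over all genes and shared by others. A second Col12a1 probe set gave 69.4 and 60.4 in intact and 125.8 and 93.6 in splenectomized mice. Col14a1, a relative of type XII in skin and cornea, was at 89.3 and 165.7 in intact and at 234.5 and 207.6 in splenectomized mice, 1.81-fold higher with no overlap. Col16a1 was 1.43-fold higher, with no overlap. The type IX chains Col9a1 and Col9a3, known from cartilage and the vitreous, overlapped between groups. Col9a1 was at 16.7 and 49.9 in intact and at 43.2 and 37.1 in splenectomized mice, and Col9a3 at 13.6 and 47.4 against 52.0 and 33.7. In both, the first intact array alone was low, and their log2 fold changes of 0.47 and 0.72 turned to -0.32 and -0.18 without it.

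Col22a1, a FACIT collagen of tissue junctions such as that of muscle and tendon, was the only family member lower in splenectomized mice with no overlap, and it is described here after its values were seen. Its signals were 186.5 and 177.1 in intact and 117.1 and 112.1 in splenectomized mice, 1.59-fold lower (log2 fold change -0.67 ± 0.17 SE, adjusted p = 0.416 in limma). A second detected probe set of Col22a1 overlapped between the groups, at 110.6 and 234.6 in intact and 144.9 and 114.8 in splenectomized mice, with a log2 fold change of -0.32. The marker list of skeletal muscle had summed signals of 380.7 and 1224 in intact and 621.8 and 586.2 in splenectomized mice, over 6 tested members of 6. Its part in the Col22a1 difference was not tested. Col19a1 and Col20a1 had log2 fold changes of -0.04 and 0.07, with SE of 0.47 and 0.40, at signals of 11 to 21.1 on every array.

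The short-chain, transmembrane and remaining collagens were mostly higher, and all but Col18a1 of those described next were lowest on the first intact array. Col8a1 and Col8a2 are the chains of the type VIII network. Col8a1 was at 285.5 and 479.8 in intact and at 550.1 and 507.1 in splenectomized mice, 1.43-fold higher. Col8a2 was at 222.6 and 405.6 in intact and at 520.6 and 475.8 in splenectomized mice, 1.66-fold higher. The groups did not overlap for either gene, although the intact arrays differed from each other by more than the second intact array did from the splenectomized pair. Col7a1, the anchoring fibril that ties epithelium to stroma, was 1.62-fold higher with no overlap, and the multiplexin Col18a1, whose end fragment is endostatin, 1.42-fold. The transmembrane Col23a1 was 1.52-fold higher with no overlap. Col17a1, the hemidesmosome collagen of epithelia, had a log2 fold change of 0.24, with overlap. Col25a1, a transmembrane collagen of neurons, was at 3.8 and 17.2 in intact and 12.7 and 15.8 in splenectomized mice, near the median signal of Absent probe sets of 6.1 on the first intact array. The median of the other collagens, 0.65, was 0.29 without intact replicate 1 and 0.90 without intact replicate 2. Without intact replicate 1 the log2 fold changes of Col17a1 and Col25a1 were -0.19 and -0.28.

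The collagen genes thus differed between the 2 intact arrays in opposite ways. The second intact array was below the first for all 6 genes of types I, III and V, with a median log2 difference of -0.64, and for Col4a1, Col4a2, Col18a1, Col19a1 and Col22a1. It was above the first for 15 of the 18 other collagens (83.3%, against 54.9% of all genes) and for Col11a1, Col4a4, Col4a5 and Col4a6. These directions are those of the probe sets used. Another detected probe set went the other way within the intact pair for Col1a2, Col12a1, Col14a1, Col18a1, Col19a1 and Col22a1. The first intact array was the lowest of the 4 arrays for 19 collagen genes, and the second for 9 (42.2% and 17.8% of all genes). The median relative level, the log2 signal minus each gene's mean, of the fibrillar minus the other collagens was 0.52 and -0.62 in intact and -0.04 and 0.14 in splenectomized mice. The splenectomized values lay between the intact ones, and whether the classes differed in their fold changes was not tested. The median relative level of all 30 genes was -0.48 and -0.17 in intact and 0.37 and 0.30 in splenectomized mice.

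**Figure D3:**
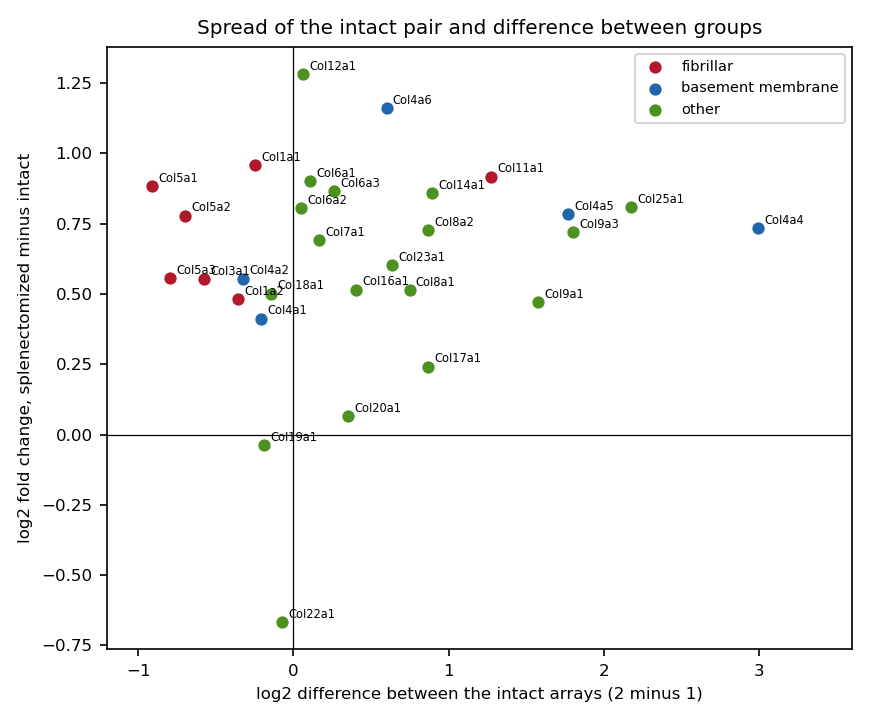
Each point is a detected collagen gene, with the log2 difference between the second and first intact array on the horizontal axis and the log2 fold change between groups on the vertical axis, coloured by class. Types I, III and V lie left of 0, type VI close to 0 and Col4a4, Col4a5, Col9a1, Col9a3 and Col25a1 far to the right.

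Marker lists of other cells moved along with these patterns, and their part in the collagen values was not tested. The lens, photoreceptor and corneal epithelium lists that check the labelled tissue were detected, for 6 of 6, 5 of 5 and 6 of 6 members with a probe set used here. Summed photoreceptor signals were 2223 and 9794 in intact and 8577 and 5543 in splenectomized mice. Those of the lens were 12160 and 27421 in intact and 28315 and 24807 in splenectomized mice. The keratocyte list, 4 of 4 detected, summed to 2645 and 6221 in intact and 5546 and 4678 in splenectomized mice. The pigment cell and cartilage lists likewise were lowest on the first intact array, at 761.5 against 2170 to 3677, and at 156.4 against 371.1 to 500.9. The cartilage marker Acan was not detected. The first intact array, lowest for most collagens outside types I, III and V, was thus also lowest for ocular tissue lists.

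Sums of the fibroblast and leukocyte lists had other orders. The fibroblast list, 8 of 8 detected, summed to 10464 and 9724 in intact and to 11216 and 11495 in splenectomized mice. Of its members, 7 of 8 were higher (against 55.1% of all genes), with a list median of 0.44 on the log2 scale. Unlike the sum, 6 of the 8 members were lowest on the first intact array and 2 on the second (42.2% and 17.8% of all genes). Of the macrophage list, 6 of 6 were detected, 4 lowest on the first intact array and 2 on the second. Its sums were 5040 and 4618 in intact and 9180 and 9199 in splenectomized mice. Like the signals of Col6a1 and Col6a2, these sums were close within each group. Of the pericyte and smooth muscle list, 4 of 7 were detected, without Cspg4, Cnn1 and Des, and their median log2 fold change was -0.03. The endothelial list, 8 of 8 detected, summed to 911.9 and 968.0 in intact and to 1288 and 1183 in splenectomized mice. The T lymphoma list, with 4 of its 7 measured members detected and Cd4, Ptcra and Rag1 not, summed to 3022 and 2373 in intact and to 2219 and 2619 in splenectomized mice. Its 4 members went opposite ways. In splenectomized mice 3 were lower, 2 of them with no overlap (19.7% of all genes). The remaining 1 was higher with no overlap (21.7% of all genes), at a log2 fold change of 1.79.

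**Figure D4:**
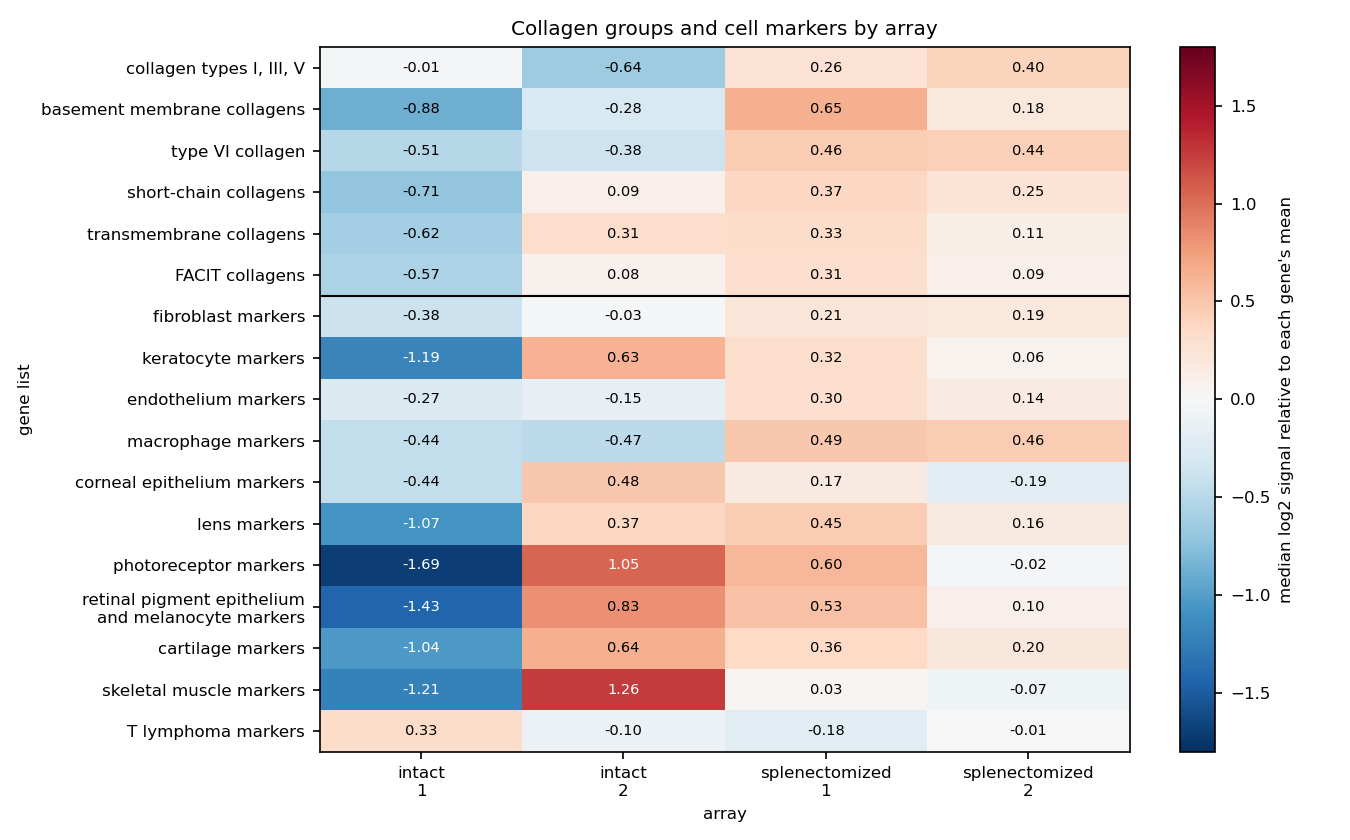
Median log2 signal relative to each gene's mean over the 4 arrays, for collagen groups (above the line) and marker lists (below it), with the value in each cell. Types I, III and V are lowest on the second intact array (-0.64), while photoreceptor markers are lowest on the first (-1.69) and highest on the second (1.05).

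Genes that make, process and bind collagen were described as lists chosen by function. Of 21 collagen hydroxylases and chaperones, 19 were detected, but P3h2 and Creb3l1 were Present in 1 group only and are left out of the counts. Of the other 17, 16 had higher mean signals in splenectomized mice, with a median log2 fold change of 0.34. At an unadjusted p under 0.05 there were 2 (11.8%, against 8.97% of all genes), both higher, and 0 after adjustment in limma. Serpinh1, the chaperone Hsp47 that is specific to procollagen, had signals of 573.4 and 577.0 in intact and 813.0 and 832.5 in splenectomized mice, a ratio of 1.43 (limma adjusted p = 0.345). P3h3, a prolyl hydroxylase family member, was 1.48-fold and Plod3, a lysyl hydroxylase, 1.30-fold higher, both with no overlap. P3h2, a prolyl hydroxylase known for acting on type IV collagen, met the detection rule through the intact group, where it was high. It had signals of 131.6 and 168.9 in intact and, called Absent on both, 100.2 and 99.1 in splenectomized mice. Since its detection rested on the intact group, no difference is read from it.

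The list of procollagen processing and cross-linking had all 11 tested members of 15 higher, with a median log2 fold change of 0.67. At an unadjusted p under 0.05 there were 7 (63.6%, against 8.97% of all genes), all higher, and 0 after adjustment in limma. Loxl1, a lysyl oxidase that cross-links matrix fibres, had signals of 400.3 and 401.7 in intact and 633.0 and 640.9 in splenectomized mice, a ratio of 1.59 (limma adjusted p = 0.228). Tgm2, a transglutaminase, was at 1693 and 1545 in intact and at 3051 and 2680 in splenectomized mice. Loxl3, another lysyl oxidase, and Bmp1, the protease that removes the end propeptide of fibrillar procollagens, were 1.79-fold and 1.86-fold higher, with no overlap between the groups.

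Of 11 collagen receptor genes, 6 were tested and all 6 were higher, with a median log2 fold change of 0.85. At an unadjusted p under 0.05 there were 4 (66.7%, against 8.97% of all genes), all higher, and 0 after adjustment in limma. Itga1, the collagen-binding integrin chain, was at 40.4 and 46.0 in intact and at 75.8 and 101.4 in splenectomized mice, 2.03-fold higher. Its partner Itgb1 was 1.60-fold higher. Mrc2, an endocytic collagen receptor, was at 73.4 and 80.3 in intact and at 162.2 and 120.8 in splenectomized mice, 1.82-fold higher. Lair1, an inhibitory collagen receptor of leukocytes, was at 47.4 and 64.1 in intact and at 95.4 and 130.9 in splenectomized mice, 2.03-fold higher. These 4, which were named for having the smallest p, did not overlap between the groups (66.7% of the 6, against 21.7% of all genes).

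Of 16 partners of type IV in basement membranes, 12 were tested, with 10 higher, 2 lower and a median log2 fold change of 0.49. At an unadjusted p under 0.05 there were 3 (25%, against 8.97% of all genes), all higher, and 0 after adjustment in limma. Lama3, a laminin chain of epithelial basement membranes, was at 104.7 and 92.5 in intact and at 195.4 and 185.2 in splenectomized mice, 1.93-fold higher. Lama4, a laminin chain of vessels, was at 98.5 and 102.9 in intact and at 158.4 and 155.9 in splenectomized mice, 1.56-fold higher. Nid1, which links laminin to type IV collagen, was 1.72-fold higher, and Pxdn, the peroxidase that cross-links the type IV network, 1.31-fold, each with no overlap.

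**Figure D5:**
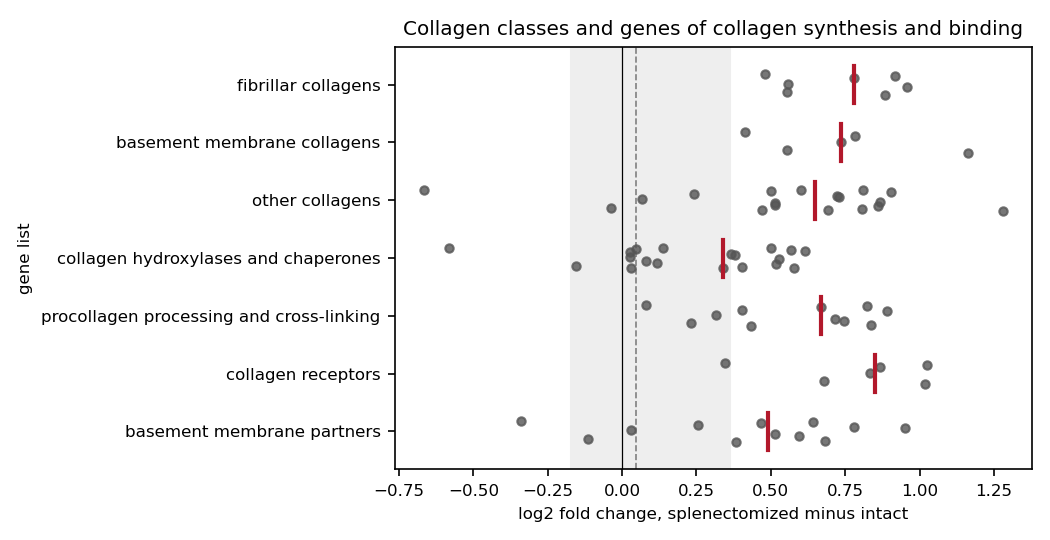
Log2 fold change (splenectomized minus intact) of the tested members of the collagen classes and of 4 lists of genes that make, process, bind or accompany collagen; red bars are list medians, the dashed line is the median of all genes and the band its quartiles. List medians run from 0.34 for hydroxylases and chaperones to 0.85 for receptors. All 19 detected hydroxylases and chaperones are drawn, including P3h2 and Creb3l1, which were Present in 1 group only. Their list median is 0.34 with or without these.

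Where a collagen gene had several detected probe sets, they mostly pointed the same way. Of 82 probe sets for the 42 genes, 51 were detected, and 48 of these had a higher mean log2 signal in splenectomized mice. In 18 of the 19 genes with over 1 detected probe set, all of them had the same direction. Col19a1 was the exception, with log2 fold changes of -0.04 and 0.74. The 21 detected probe sets that were not used above had a median log2 fold change of 0.75, close to the 0.71 of the 30 that were. They measure the same RNA as the ones used and are no further replicates.

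Across the 4 arrays, 53.2% (intact replicate 1) to 58.6% (intact replicate 2) of all probe sets were called Present. Signals of any 2 arrays correlated across genes (r between 0.942 and 0.981, a description, since genes are no replicates). Of the 30 collagen genes, 26 were Present on all 4 arrays. None was Present on both arrays of a single group only, so no member was tested because of signal in that group alone. The intact arrays differed more from each other (SD of the log2 difference over genes 0.745) than the splenectomized ones did (0.408). With 2 arrays a group, precision is limited by that number.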

How the data were processed

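Total RNA of tumour-bearing eyes was labelled with a 3'-IVT Express kit, per the labels' protocols. The authors deposited a signal intensity on a linear scale and a Present or Absent call for every probe set, and the submitters' processing notes name GCOS 1.4 and MAS5. No source used here states a scaling target. Each array has a mean of 150.0 after trimming 2% at each end. Signals of 0 were raised to 0.1 before log2. Of 45101 probe sets, 34945 had 1 gene symbol, and 34741 of these matched RefSeq by Entrez identifier. A gene was read from its brightest probe set Present on at least 2 arrays. Splenectomized and intact mice were compared in limma 3.58.1 under R 4.3.3 (lmFit, eBayes with an intensity trend, no covariate, all 4 arrays). P-values are two-sided, with Benjamini-Hochberg adjustment over 13148 genes, and the fit had 2 residual degrees of freedom. A fold is the ratio between geometric means. The fit was tested on simulated data.

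The collagen genes, classes, companion lists, marker lists and alternatives were chosen with earlier results of these data known. Arrays were named by group and replicate number. Per-array values are given for up to 7 genes per class by largest change and for partner chains, and 4 genes per companion list by smallest p. Col22a1, Col13a1 and Col15a1 were added after their values were seen. Replicate numbers are shared between groups, but same-numbered arrays deviated in opposite directions (correlation -0.443 across genes). Figures were drawn with matplotlib 3.10.9.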

Additional observations from a re-analysis of the deposited data

How the results depend on the processing

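Among the 15 alternatives, those that kept both arrays of each group called no collagen gene after adjustment, except the crossed replicate block. That block called 2 of 30 collagen genes, against 99 of 13148 over all genes. Fits that leave out 1 array are not part of this count, since they leave a group with no replicate. Of the recomputed values, 13 of 446 log2 fold changes, in 8 genes, turned in sign. From leaving out intact replicate 1 to leaving out intact replicate 2, they ran from -0.76 to 2.23 for Col4a4, -0.10 to 1.67 for Col4a5, -0.32 to 1.26 for Col9a1, -0.18 to 1.62 for Col9a3, -0.19 to 0.68 for Col17a1, -0.28 to 1.90 for Col25a1 and -0.11 to 0.24 for Col20a1. Col20a1 was at -0.023 after median centring, -0.10 after quantile normalization and -0.044 without splenectomized replicate 1. Col19a1 was at 0.35 as the mean of its probe sets, and without 1 array ran from -0.32 to 0.25, with 0.058 without intact replicate 1. Leaving out 1 array at a time moved the family median between 0.46 and 0.83, the fibrillar one between 0.43 and 0.95, the basement membrane one between 0.46 and 1.46, the other one between 0.29 and 0.90 and that of all genes between -0.037 and 0.10. A pseudocount of 16 gave a family median of 0.52, and median centring an all-gene median of -0.043.

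The 14 collagen genes with an unadjusted p under 0.05 became 9 of 30 after median centring (6.21% of all genes) and 8 without the intensity trend (8.26%), and 5 to 23 without 1 array. Over all genes that count was 546 with the replicate block and 273 to 4630 without 1 array, and 2830 genes passed after adjustment without intact replicate 2, 271 without intact replicate 1 and 0 without either splenectomized array. Fits that leave out 1 array take their spread from the other pair and assume that the lone array varies alike. Quantile normalization called 1 gene over all genes, Ccl5 (log2 fold change 1.81), named after its value was seen. The crossed replicate block, chosen after seeing the data, called 99 genes over all genes, Col12a1 and Col1a1 among them, and gave 20 of 30 collagen genes (18.3% of all genes) and 2402 genes in all at an unadjusted p under 0.05. The replicate block, which pairs arrays by number, called 0 genes, with 10 collagen genes at an unadjusted p under 0.05 (4.15% of all genes). Signals near that of Absent probe sets limit Col4a4, Col4a6, Col19a1, Col20a1 and Col25a1.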

Other observations

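The 12 collagen genes without a detected probe set were Col2a1, Col4a3, Col6a4, Col6a5, Col9a2, Col10a1, Col11a2, Col13a1, Col15a1, Col24a1, Col26a1 and Col27a1. With no filter on detection calls, 36 of 42 collagen genes had a higher mean log2 signal in splenectomized mice (against 56.3% of 18193 genes). Their median log2 fold change was 0.59, against 0.069 for the 18193 genes. The 42 include the 12 genes above, so the count rests partly on signals mostly called Absent. Col15a1, a multiplexin of vessel and muscle basement membranes, was called Absent on every array, at signals of 15.5 and 21.8 in intact and 51.3 and 38.3 in splenectomized mice. Col13a1, a transmembrane collagen, was called Present on 1 splenectomized array, at signals of 11.7 and 16.3 in intact and 31.2 and 26.7 in splenectomized mice. Col15a1 and Col13a1 were picked after their values were seen, and others of the 12 went the other way. Log2 fold changes were -0.71 for Col10a1, -0.093 for Col11a2, and -0.34 and -1.25 for the probe sets of Col26a1. Those of Col6a4 had 2.14 and -0.37.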
